A study of Mus musculus with 15 samples.

Results

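Glucocorticoid-responsive genes and metallothioneins were followed across the livers of mice kept on 3 feeding regimens. The 9 genes were taken by name: Fkbp5, Tsc22d3, Klf9, Klf15, Sgk1, Zbtb16 and Dusp1, which are known targets of the glucocorticoid receptor, and the metallothionein genes Mt1 and Mt2. They are 9 of the 35275 genes listed in the deposited counts, and all 9 were among the 13837 genes with enough counts to be tested. Poly(A) RNA was sequenced from the left lateral lobe of C57BL/6 mice, a common laboratory strain, that were 3 months of age when the regimens began and 6 months when they ended. The groups were every-other-day fasting with 24 h without food (EOD), intermittent fasting of 16 h (IF16) and unrestricted feeding (ad libitum, AL), each held for 3 months, with 5 libraries per group. Nothing in the labels ties a library to its own mouse, or gives the hour at which livers were taken or the time since the last meal. The p-values below thus compare group differences with the scatter among libraries, some of which may be technical.

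Glucocorticoids are adrenal steroids whose secretion follows the time of day and rises with fasting and stress. In hepatocytes the hormone binds the glucocorticoid receptor, which is held in the cytoplasm by Hsp90 and its cochaperones, moves to the nucleus and binds response elements in or near its target genes. Metallothioneins are small cysteine-rich proteins that bind zinc and copper, and their genes in liver respond to zinc through the transcription factor MTF1, to glucocorticoids and to inflammatory cytokines.

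The libraries held 28129883 to 38147534 counts. AL replicates 4 and 5 stood apart from the other 13 libraries by their acute phase transcripts, which liver makes in inflammation. Saa1 reached 2805 and 5604 CPM (counts relative to the scaled total of a library) in AL replicates 4 and 5, against 27.9 to 30.4 CPM in AL replicates 1 to 3. The members' comparisons with AL, and the counts of the pathway lists against AL, are therefore given with and without these 2 libraries. Hepatocyte markers were abundant in all groups, with the 8 genes of that list summing to 84810 to 115900 CPM in EOD, 105600 to 136200 CPM in IF16 and 88960 to 110400 CPM in AL. The 10 markers of sinusoidal endothelium summed to 244 to 309 CPM in EOD, 247 to 283 CPM in IF16 and 122 to 204 CPM in AL. Of these, 8 of 10 rose in EOD against AL and 6 of 10 rose in IF16 against AL, and none was at 0 in all libraries. At an edgeR adjusted p under 0.05, 35.2% of all tested genes were called in EOD against AL. The percentage was 3.5% in IF16 against AL and 16.1% in EOD against IF16. Of the 8 hepatocyte markers 2 fell in EOD, both against AL and against IF16. Of 9 stellate cell markers 2 rose and 1 fell in EOD against AL and 1 rose in EOD against IF16, and of 6 T and NK cell markers 2 fell in EOD against AL and 1 in EOD against IF16. The other marker lists had 1 cholangiocyte marker of 5 higher in EOD against AL, 1 B and plasma cell marker of 5 lower in EOD against each of the other groups, and 2 of 2 neutrophil markers lower in EOD and 1 in IF16 against AL. The neutrophil list summed to 30.2 and 28.4 CPM in AL replicates 4 and 5, against 1.35 to 1.76 CPM in AL replicates 1 to 3. All of these marker counts used the 15 libraries and were not repeated without AL replicates 4 and 5. The part of these markers in the members' values was not tested. Mitochondrially encoded transcripts took 5.34% to 10.1% of the counts in EOD, 8.98% to 11.5% in IF16 and 10.01% to 15.07% in AL. In bulk tissue, fewer cells of a type and less RNA per cell cannot be told apart.

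Among the 9 genes, Klf9 and Sgk1 rose in EOD against AL, Sgk1 rose in IF16 against AL, and Klf9 rose in EOD against IF16. No member fell in any comparison under the edgeR quasi-likelihood test at an adjusted p under 0.05. At an unadjusted p under 0.05, Mt1 and Mt2 were lower in IF16 against AL, 2 of 9, and the DESeq2 Wald test called Mt2 lower there, while neither count was above 0 in the other 2 comparisons. Thus 2 of 9 were called in EOD against AL, where 35.2% of all tested genes were called, 17.6% higher and 17.6% lower. For IF16 against AL 1 of 9 was called, beside 3.5% of all tested genes, 1.4% higher and 2.1% lower. In EOD against IF16 1 of 9 was called, beside 16.1% of all tested genes, 7.96% higher and 8.15% lower. The median log2 fold change over the 9 genes was 0.26 in EOD against AL, 0.05 in IF16 against AL and 0.49 in EOD against IF16, where the median over all tested genes was -0.011, 0 and -0.003. Without AL replicates 4 and 5, 5 of the 9 rose in EOD against AL (Klf9, Sgk1, Zbtb16, Mt1 and Mt2; 30.3% of all genes were called, 16.4% higher and 13.9% lower). In the same 13 libraries none passed in IF16 against AL (2.59% of all genes were called, 0.859% higher and 1.73% lower). There Sgk1, Zbtb16 and Mt1 were higher at an unadjusted p under 0.05. On all 15 libraries the DESeq2 Wald test called 2 members in IF16 against AL, Sgk1 higher and Mt2 lower. In EOD against IF16 Klf9 alone remained past the threshold without AL replicates 4 and 5. AL replicates 4 and 5 were picked from these same data and were the highest AL libraries for Fkbp5, Zbtb16, Mt1 and Mt2. Leaving them out lowers the AL level of those genes, and the adjusted p-values make no allowance for that choice.

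**Figure D1:**
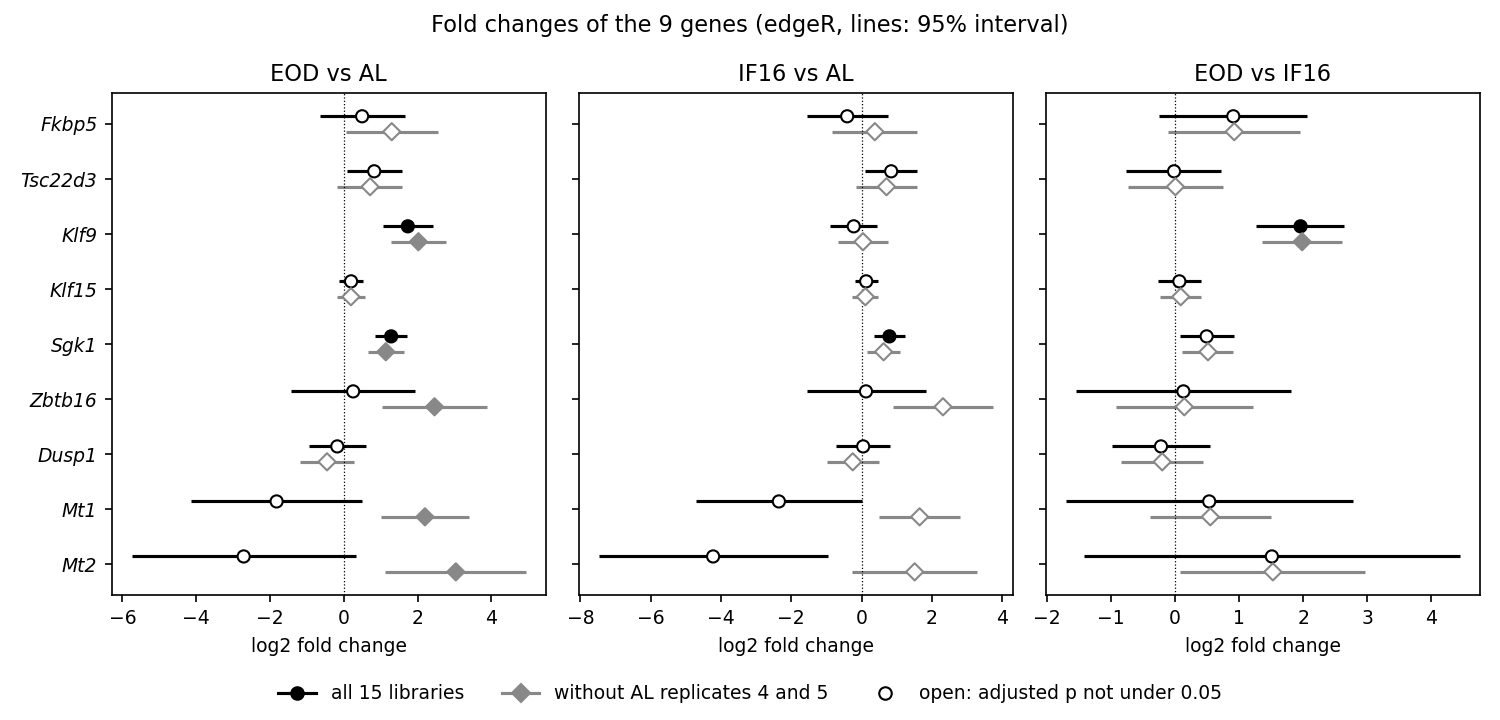
Log2 fold change (x axis) of the 9 genes (rows) in EOD against AL, IF16 against AL and EOD against IF16, with lines for 95% intervals from the edgeR fit, black circles for all 15 libraries, grey diamonds for 13 libraries without AL replicates 4 and 5, and filled symbols for an adjusted p under 0.05. Klf9 and Sgk1 lie to the right of 0 in EOD against AL under both, while Mt1 and Mt2 lie left of 0 with all libraries and right of 0 without the 2 AL libraries.

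Levels can be compared between genes per length, as FPKM (counts scaled by transcript length and library total). In the EOD group, mean FPKM was 281 for Mt1, 108 for Mt2, 89.5 for Tsc22d3, 87.3 for Klf15, 24.4 for Dusp1, 17.1 for Klf9, 11.2 for Fkbp5, 10.5 for Sgk1 and 3.39 for Zbtb16. Across the 15 libraries Klf15 was the steadiest, with a highest FPKM 1.71 times its lowest. The same ratio was 8.89 for Fkbp5, 9.54 for Klf9, 18.4 for Zbtb16, 111 for Mt1 and 251 for Mt2.

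Sgk1, a serine/threonine kinase known for control of sodium transport, was the member that rose in both fasting groups against AL. It lies on chromosome 10 at 21882184 to 21999903 (mm10, plus strand). Its level was 24.9, 34.3, 33.8, 42.4 and 29.0 CPM in the EOD libraries, 13.6, 29.4, 29.5, 24.9 and 19.4 CPM in the IF16 libraries, and 14.1, 14.4, 17.1, 12.6 and 9.18 CPM in the AL libraries. Every EOD library was above every AL library, whereas IF16 replicate 1 lay within the AL range and the other 4 IF16 libraries above it. Mean CPM was 32.9 ± 6.58 in EOD, 23.4 ± 6.82 in IF16 and 13.5 ± 2.91 in AL (SD, n = 5 each). In EOD against AL the log2 fold change was 1.28 (SE 0.21, 95% interval 0.85 to 1.72, edgeR adjusted p = 0.000213). This call held in every alternative run, with adjusted p up to 0.00179. Against AL, IF16 was higher by 0.79 on the log2 scale (SE 0.20, interval 0.36 to 1.23, edgeR adjusted p = 0.0406). That call was lost in 10 of the 15 fits that left out 1 library (AL replicates 1, 2, 4 and 5, IF16 replicates 2 to 5 and EOD replicates 2 and 3), with adjusted p from 0.00746 to 0.125. It was also lost with no filter on low counts, with the 2 groups alone and without AL replicates 4 and 5 (0.63 on the log2 scale, adjusted p = 0.157). Between the fasting groups, EOD was 0.49 above IF16 on the log2 scale (SE 0.20, interval 0.07 to 0.92), with an edgeR adjusted p of 0.105. The endothelial markers given above moved in the same 2 comparisons with AL, and their part in the Sgk1 result was not tested.

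RefSeq (GRCm38.p6) lists 6 promoter windows of Sgk1, each of 250 bases before to 50 bases after a transcript start. The window at chr10:21993640-21993939 (plus strand) is shown because it holds a full palindromic match to the glucocorticoid response element, in capitals below.
Sgk1: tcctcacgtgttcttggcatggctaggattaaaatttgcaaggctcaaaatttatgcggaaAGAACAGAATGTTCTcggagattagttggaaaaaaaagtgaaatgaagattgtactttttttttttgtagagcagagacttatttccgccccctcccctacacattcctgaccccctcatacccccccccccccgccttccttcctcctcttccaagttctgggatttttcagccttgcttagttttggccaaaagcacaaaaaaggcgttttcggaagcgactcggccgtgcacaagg
The motif searched, on both strands, was AGAACA, then 3 bases of any kind, then TGTTCT, and its first base lies at position -189 from the start. Only 3 of 32851 mouse promoter windows hold this motif (0.00913%). The hexamer AGAACA alone, which is part of it, is in 19% of windows, and occurs in 2 other Sgk1 windows and in 1 of 3 windows of Tsc22d3. None of the single windows of Fkbp5, Klf9, Klf15, Dusp1, Mt1 and Mt2 holds the hexamer. Zbtb16 has no promoter entry in the table. A match is a description of letters and not of binding.

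Klf9, a zinc finger transcription factor induced by glucocorticoids and thyroid hormone, separated EOD from both other groups. It lies on chromosome 19 at 23141226 to 23166911 (mm10, plus strand). Its level was 102, 46.4, 62.2, 31.8 and 37.0 CPM in the EOD libraries, 16.2, 15.9, 11.9, 13.2 and 14.5 CPM in the IF16 libraries, and 19.8, 11.2, 10.96, 28.1 and 13.6 CPM in the AL libraries. The EOD libraries were all above every IF16 and AL library, EOD replicate 1 was highest, and IF16 lay inside the AL range. In EOD against AL the log2 fold change was 1.74 (SE 0.32, 95% interval 1.06 to 2.42, edgeR adjusted p = 0.000888). In EOD against IF16 it was 1.96 (SE 0.32, interval 1.27 to 2.64, edgeR adjusted p = 0.00121). Both calls held in every alternative run, and without EOD replicate 1 the log2 fold change was 1.41 against AL and 1.63 against IF16. The change in IF16 against AL was -0.22 (SE 0.31, interval -0.89 to 0.45), with an edgeR adjusted p of 0.768. The part of the endothelial markers in the Klf9 result was not tested. Sgk1 and Klf9 were thus the 2 of 9 members with no overlap between EOD and AL, beside 18.6% of all tested genes, 8.46% with EOD above and 10.1% with EOD below. Klf9 was the 1 of 9 with no overlap between EOD and IF16, beside 10.9% of all tested genes, 4.63% with EOD above and 6.26% below. Between IF16 and AL 0 of 9 members had groups that did not overlap (5.79% of all tested genes, 2.59% with IF16 above and 3.19% below).

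**Figure D2:**
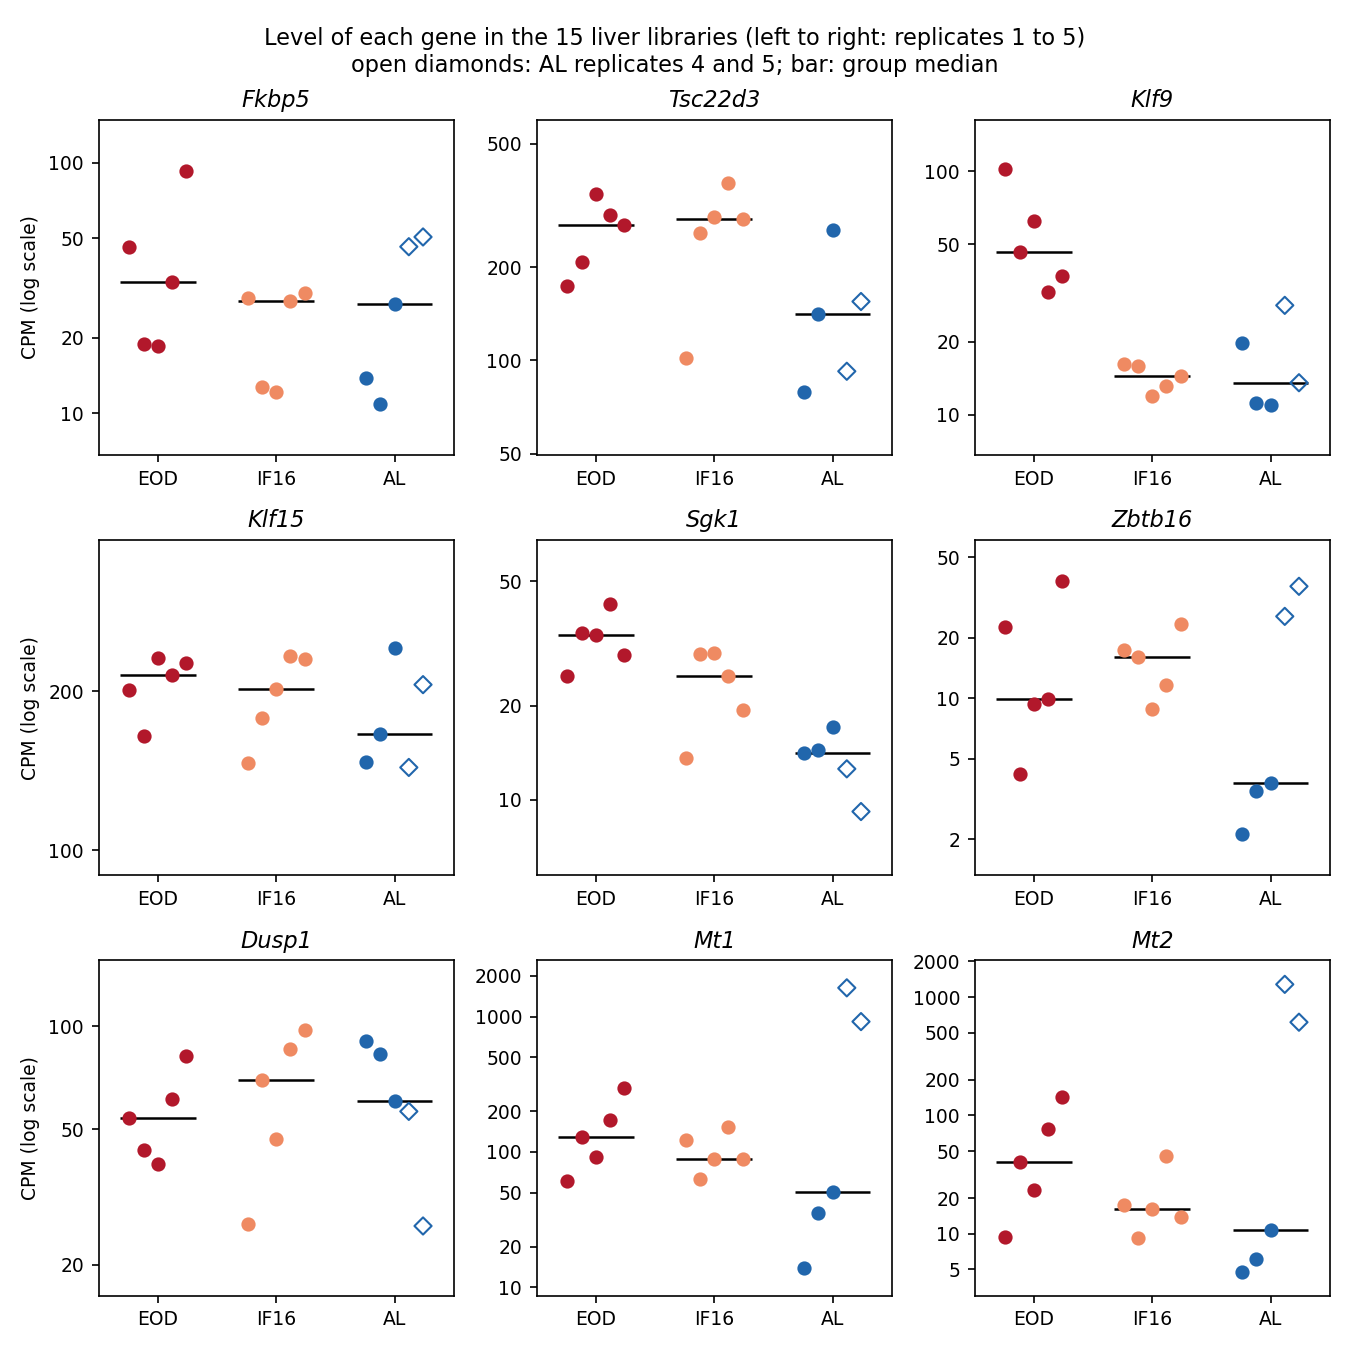
CPM on a log scale (y axis) of each of the 9 genes in EOD, IF16 and AL, with 1 point per library in replicate order, a bar at the group median and open diamonds for AL replicates 4 and 5. Klf9 is separated in EOD from both other groups, Sgk1 is lowest in AL, and Mt1 and Mt2 are above 600 CPM in the 2 AL libraries marked as diamonds only.

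Klf15, a zinc finger factor that in mouse liver links fasting to amino acid breakdown and glucose production, passed in no comparison. It lies on chromosome 6 at 90462576 to 90475238 (mm10, plus strand). Its level was 201, 164, 231, 215 and 226 CPM in the EOD libraries, 146, 178, 202, 233 and 230 CPM in the IF16 libraries, and 147, 166, 242, 144 and 206 CPM in the AL libraries. The 3 groups overlapped over most of their range, and AL replicate 3 was the highest library of all. The log2 fold change was 0.20 in EOD against AL (interval -0.13 to 0.53), 0.13 in IF16 against AL (interval -0.20 to 0.46) and 0.07 in EOD against IF16 (interval -0.26 to 0.40). The edgeR adjusted p was 0.343, 0.712 and 0.812 in that order. The 95% intervals of the 3 differences reached no further than 0.53 from 0 on the log2 scale. The Klf15 window holds 3 copies of CACGTG, the E-box read by the clock factors, a motif present at least 1 time in 7.15% of windows. The Fkbp5 window, the Dusp1 window and the Sgk1 window shown above hold 1 copy each.

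Tsc22d3 encodes GILZ, a leucine zipper protein known as a mediator of the anti-inflammatory action of glucocorticoids. The gene lies on chromosome X at 140539528 to 140600659 (mm10, minus strand). Its level was 174, 208, 345, 295 and 273 CPM in the EOD libraries, 102, 257, 291, 374 and 286 CPM in the IF16 libraries, and 79.2, 141, 263, 92.3 and 155 CPM in the AL libraries. Among AL libraries replicate 3 lay inside the EOD range, and among IF16 libraries replicate 1 lay inside the AL range, so the groups overlapped. Mean CPM was 259 ± 68.7 in EOD, 262 ± 99.4 in IF16 and 146 ± 72.7 in AL (SD, n = 5 each). The log2 fold change was 0.83 in EOD against AL (SE 0.35, interval 0.08 to 1.57, edgeR adjusted p = 0.0794). It was 0.84 in IF16 against AL (SE 0.35, interval 0.10 to 1.59, edgeR adjusted p = 0.208). Neither passed the threshold with all libraries. In EOD against AL it passed when AL replicate 3 or IF16 replicate 1 was left out (lowest adjusted p = 0.0157) and in the DESeq2 Wald test and 2 of 3 limma settings, but with AL replicates 4 and 5 removed the change was 0.71 (adjusted p = 0.205). EOD and IF16 differed by -0.02 on the log2 scale (interval -0.76 to 0.72).

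Fkbp5, a cochaperone of Hsp90 that lowers the affinity of the glucocorticoid receptor for hormone and is itself induced by the receptor, spread widely inside the EOD and AL groups. It lies on chromosome 17 at 28399095 to 28517524 (mm10, minus strand), where GENCODE vM21 lists an antisense gene that has no row in the deposited table. Its level was 46.1, 18.8, 18.6, 33.5 and 92.9 CPM in the EOD libraries, 28.8, 12.7, 12.2, 27.9 and 30.2 CPM in the IF16 libraries, and 13.8, 10.9, 27.3, 46.2 and 50.5 CPM in the AL libraries. EOD replicate 5 and AL replicates 4 and 5 were the 3 highest, and the groups overlapped. The log2 fold change was 0.50 in EOD against AL (interval -0.65 to 1.65), -0.41 in IF16 against AL (interval -1.56 to 0.74) and 0.91 in EOD against IF16 (interval -0.25 to 2.06). The edgeR adjusted p was 0.497, 0.745 and 0.272 in that order. Without AL replicates 4 and 5 the change in EOD against AL was 1.30 (interval 0.06 to 2.55, adjusted p = 0.106).

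Zbtb16, which encodes the zinc finger repressor PLZF, had the same 3 highest libraries as Fkbp5. It lies on chromosome 9 at 48654311 to 48835945 (mm10, minus strand). Its level was 22.5, 4.21, 9.42, 9.94 and 38.2 CPM in the EOD libraries, 17.3, 16.0, 8.81, 11.6 and 23.3 CPM in the IF16 libraries, and 2.12, 3.45, 3.78, 25.5 and 35.9 CPM in the AL libraries. AL replicates 1 to 3 were the 3 lowest of the 15, below every EOD and IF16 library, and AL replicates 4 and 5 were above all but EOD replicate 5. With all libraries the log2 fold change was 0.26 in EOD against AL (SE 0.78, edgeR adjusted p = 0.829) and 0.13 in IF16 against AL (SE 0.78, adjusted p = 0.955). Without AL replicates 4 and 5 it was 2.46 in EOD against AL (interval 1.03 to 3.89, adjusted p = 0.0146). It was then 2.32 in IF16 against AL (interval 0.90 to 3.74, adjusted p = 0.0897). EOD and IF16 differed by 0.13 (interval -1.55 to 1.81).

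Dusp1, a phosphatase that switches off MAP kinases and is induced by glucocorticoids as well as by stress, passed in no comparison. It lies on chromosome 17 at 26505590 to 26508519 (mm10, minus strand). In GENCODE vM21 the span of Dusp1 is longer and reaches the start of the protein-coding gene Ergic1 on the other strand, whereas in the coordinates of the deposited table the pair does not overlap. Ergic1 had up to 1925 counts in a library, where Dusp1 had at least 771, and whether counting used strand is not stated. The level of Dusp1 was 53.9, 43.5, 39.6, 61.1 and 82.1 CPM in the EOD libraries, 26.4, 69.5, 46.9, 86.0 and 97.6 CPM in the IF16 libraries, and 90.5, 82.9, 60.5, 56.3 and 26.0 CPM in the AL libraries. AL replicate 5 and IF16 replicate 1 were lowest, and the groups overlapped. The log2 fold change was -0.17 in EOD against AL (interval -0.95 to 0.60, edgeR adjusted p = 0.737), 0.05 in IF16 against AL (interval -0.73 to 0.82) and -0.22 in EOD against IF16 (interval -0.99 to 0.55). The Dusp1 window holds the palindrome TGACGTCA, the cAMP response element, at position -143 from the start, a motif found in 1.79% of windows.

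The metallothionein genes Mt1 and Mt2 are neighbours on chromosome 8, Mt2 at 94172618 to 94173567 and Mt1 at 94179089 to 94180325 (mm10, plus strand). Their promoter windows in RefSeq (GRCm38.p6) are chr8:94178839-94179138 for Mt1 and chr8:94172368-94172667 for Mt2. They are shown because both carry several metal response element cores, TGCACNC or TGCGCNC on either strand, in capitals below.
Mt1: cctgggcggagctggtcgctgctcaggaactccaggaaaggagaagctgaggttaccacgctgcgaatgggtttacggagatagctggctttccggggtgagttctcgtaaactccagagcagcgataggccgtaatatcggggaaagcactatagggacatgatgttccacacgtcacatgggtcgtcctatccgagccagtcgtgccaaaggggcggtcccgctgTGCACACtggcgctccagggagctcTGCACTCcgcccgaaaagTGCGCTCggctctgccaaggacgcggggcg
Mt2: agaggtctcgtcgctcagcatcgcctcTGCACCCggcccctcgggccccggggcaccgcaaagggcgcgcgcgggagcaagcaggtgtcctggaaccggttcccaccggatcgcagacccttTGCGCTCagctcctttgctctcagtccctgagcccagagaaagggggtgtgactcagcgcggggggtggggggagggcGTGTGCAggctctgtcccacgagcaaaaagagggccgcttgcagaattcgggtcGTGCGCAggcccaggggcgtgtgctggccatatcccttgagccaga
The Mt1 window holds 3 such cores and the Mt2 window 4. At least 1 core is found in 25.7% of mouse promoter windows, at least 3 in 1.97% and at least 4 in 0.517%.

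Mt1 had 60.8, 129, 91.3, 172 and 296 CPM in the EOD libraries, 123, 63.6, 89.3, 154 and 88.5 CPM in the IF16 libraries, and 13.9, 35.2, 50.3, 1629 and 917 CPM in the AL libraries. Mt2 had 9.38, 40.5, 23.7, 76.5 and 143 CPM in the EOD libraries, 17.6, 9.25, 16.1, 45.6 and 13.98 CPM in the IF16 libraries, and 4.81, 6.14, 10.8, 1282 and 614 CPM in the AL libraries. For both genes AL replicates 4 and 5 were the highest of all 15 libraries and AL replicates 1 and 2 the lowest. AL replicate 3 was also below every EOD and IF16 library for Mt1, and for Mt2 it was above EOD replicate 1 and IF16 replicate 2. By FPKM, Mt1 ranked 35 and 49 among all listed genes in AL replicates 4 and 5, against 1811, 885 and 702 in AL replicates 1 to 3.

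With all libraries neither gene passed. For Mt1 the log2 fold change was -1.82 in EOD against AL (SE 1.06, interval -4.13 to 0.49, edgeR adjusted p = 0.203) and -2.35 in IF16 against AL (SE 1.08, adjusted p = 0.268). For Mt2 it was -2.71 in EOD against AL (SE 1.40, interval -5.75 to 0.33, adjusted p = 0.153) and -4.22 in IF16 against AL (SE 1.503, adjusted p = 0.151). The direction turned when AL replicates 4 and 5 were left out. Mt1 then rose in EOD against AL by 2.20 on the log2 scale (interval 1.01 to 3.39, adjusted p = 0.0102), and Mt2 rose by 3.04 (interval 1.13 to 4.94, adjusted p = 0.0215). In IF16 against AL the log2 fold change without them was 1.65 for Mt1 (interval 0.49 to 2.81, adjusted p = 0.136) and 1.51 for Mt2 (interval -0.27 to 3.29, adjusted p = 0.388). EOD against IF16 gave 0.53 for Mt1 (interval -1.71 to 2.78) and 1.51 for Mt2 (interval -1.43 to 4.45) with all libraries.

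The ratio of Mt2 to Mt1, both in FPKM, was not constant. It was 0.150, 0.304, 0.252, 0.431 and 0.469 in the EOD libraries, 0.139, 0.141, 0.175, 0.288 and 0.153 in the IF16 libraries, and 0.336, 0.169, 0.208, 0.764 and 0.650 in the AL libraries. AL replicates 4 and 5 had the highest ratios as well as the highest levels. Mt1 shares no 50-base stretch of transcript with another gene, Mt2 included, so reads of the 2 genes could be told apart. In GENCODE vM21, 45.8% of the 50-base stretches of Mt2 lie also in the antisense gene Gm45774, which has no row in the deposited table. Whether counting used strand is not stated, so Mt2 counts may hold reads of that gene. The acute phase score, the mean of log2 CPM over 24 genes after centring each gene on its mean over the 15 libraries, ran from -0.67 to -0.02 in 13 libraries and reached 1.82 and 2.22 in AL replicates 4 and 5. Neutrophil markers, of which 2 of 7 had enough counts to be tested, summed to 1.14 to 4.08 CPM in EOD and 1.55 to 2.07 CPM in IF16. In AL they summed to 1.35 to 1.76 CPM in replicates 1 to 3, and to 30.2 and 28.4 CPM in replicates 4 and 5. The part of these in the metallothionein values was not tested.

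**Figure D3:**
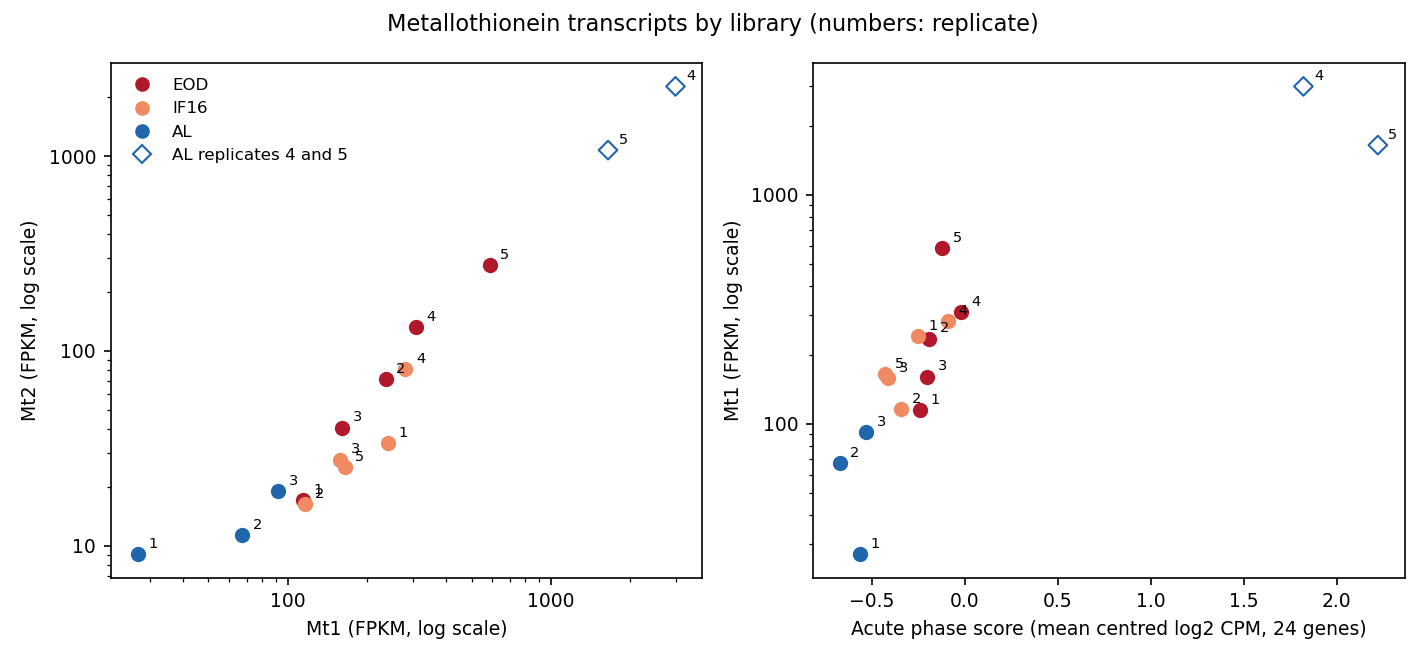
Left, Mt2 against Mt1 in FPKM on log axes, and right, Mt1 in FPKM on a log axis against the acute phase score, with 1 point per library, numbers for the replicate and open diamonds for AL replicates 4 and 5. The 2 diamonds lie apart at acute phase scores of 1.82 and 2.22, while the other 13 libraries spread in Mt1 at scores from -0.67 to -0.02.

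As a description over the 15 libraries, which share their groups, the correlation of log2 CPM was highest for Mt1 with Mt2 (Pearson r = 0.97, and 0.91 over the 13 libraries without AL replicates 4 and 5). It was 0.86 for Tsc22d3 with Klf15, 0.73 for Fkbp5 with Zbtb16 and 0.72 for Tsc22d3 with Sgk1, and over the 13 libraries 0.87, 0.68 and 0.71 in that order. Fkbp5 and Tsc22d3, both direct targets of the receptor, had r = 0.02 (0.23 over the 13 libraries), and Klf9 with Tsc22d3 had r = 0.04 (0.05). Several pairs with a metallothionein depended on AL replicates 4 and 5. Tsc22d3 with Mt1 had r = -0.03 over all libraries and 0.61 without the 2, Sgk1 with Mt1 had -0.19 and 0.61, and Sgk1 with Mt2 had -0.21 and 0.65. The leading libraries differed between members: EOD replicate 5 was highest for Fkbp5 and Zbtb16, EOD replicate 1 for Klf9, EOD replicate 4 for Sgk1 and IF16 replicate 4 for Tsc22d3.

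**Figure D4:**
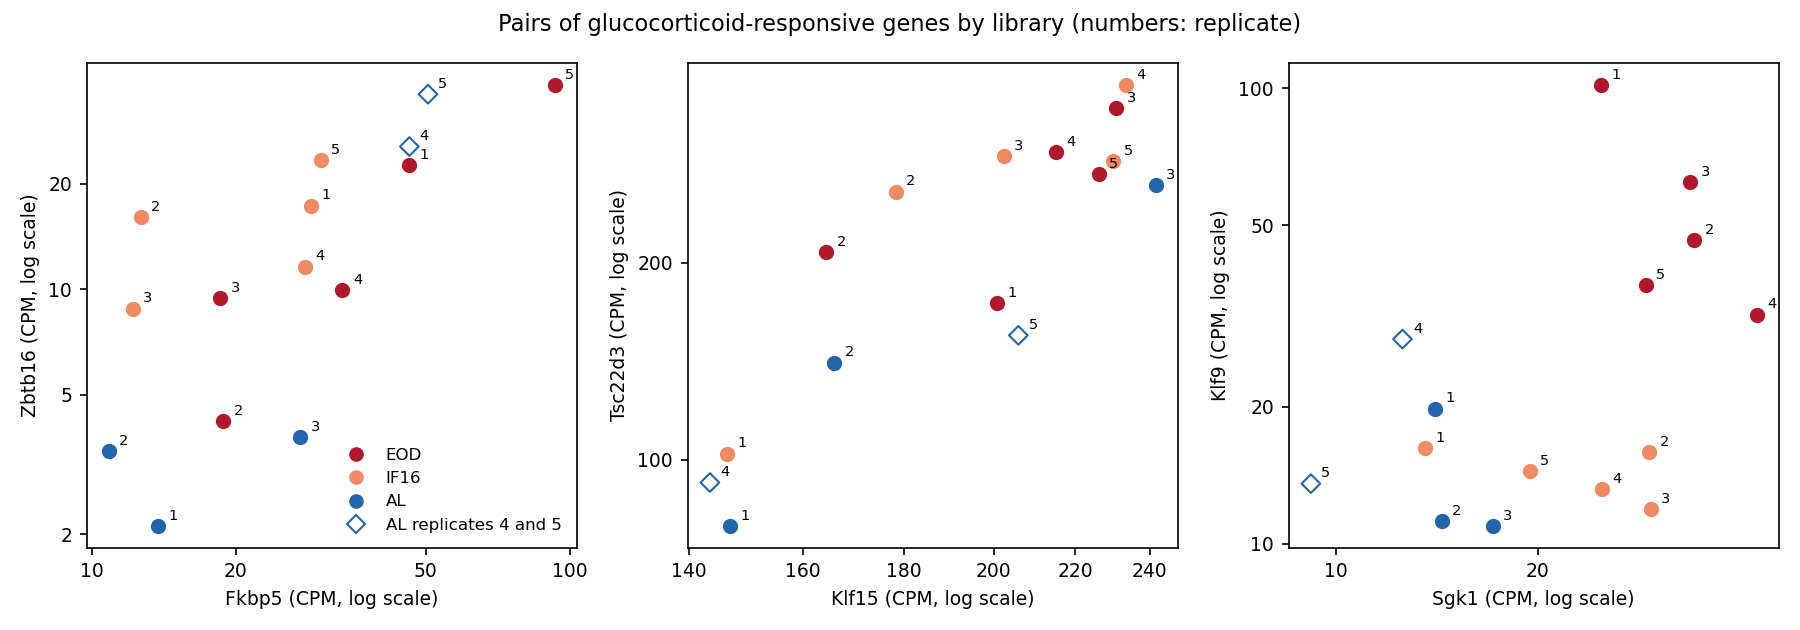
CPM on log axes of Zbtb16 against Fkbp5, Tsc22d3 against Klf15 and Klf9 against Sgk1, with 1 point per library, numbers for the replicate and open diamonds for AL replicates 4 and 5. Points rise together in the first 2 panels (r = 0.73 and 0.86), and in the third the EOD libraries lie at the top, with Klf9 from 31.8 to 102 CPM.

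Among 10805 other protein-coding genes, the genes whose log2 CPM followed a member most closely over the 15 libraries were found by Pearson r. For Sgk1 they were Ech1 (r = 0.966), Slc27a2 (0.956) and Acadl (0.955), which act in fatty acid uptake and oxidation, and for Klf9 they were Cth (0.945), Pdpk1 (0.943) and Ube2z (0.941). For Mt1 and Mt2 the first was the same gene, Fgl1, a secreted fibrinogen-like protein of hepatocytes (r = 0.909 with Mt1 and 0.925 with Mt2), followed by Hc (0.906 and 0.920), the gene of complement component C5. Fkbp5 was followed by Tmem115 (0.904), Tsc22d3 by D8Ertd738e (0.869), Klf15 by Zbed4 (0.880), Dusp1 by Tob2 (0.876), and Zbtb16 by Il1r1 (0.899), the interleukin-1 receptor. Without AL replicates 4 and 5, Ech1 stayed among the top 3 for Sgk1 (0.948) and Il1r1 for Zbtb16 (0.904). Slc27a2 and Acadl left the top 3 for Sgk1, and for Klf9 and Tsc22d3 no gene of the top 3 stayed. Fgl1 was then no longer among the top 3 for Mt1 or Mt2, whose first genes became Rcsd1 (0.905) and Mustn1 (0.878).

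Among 20 genes of glucocorticoid supply and receptor function, 7 rose and 5 fell in EOD against AL, 2 rose and 0 fell in IF16 against AL, and 5 rose and 2 fell in EOD against IF16. Against the 0 that fell in IF16 by edgeR, 2 were lower at an unadjusted p under 0.05, and DESeq2 called 1. Of all tested genes, 35.2% were called in EOD against AL, 3.5% in IF16 against AL and 16.1% in EOD against IF16. The receptor gene itself, Nr3c1, named here outside the rule for named genes, was at 34.8 to 47.7 CPM in EOD, 34.8 to 41.4 CPM in IF16 and 33.98 to 47.35 CPM in AL, with a log2 fold change of 0.13 in EOD against AL (edgeR adjusted p = 0.366). Hspa8 and Hsp90ab1, cytosolic chaperones that act on the receptor, rose in EOD. Hspa8 averaged 2222 ± 234 CPM in EOD, 1446 ± 233 CPM in IF16 and 1252 ± 277 CPM in AL (SD, n = 5 each). Hsp90ab1 averaged 1077 ± 82.9 CPM in EOD, 729 ± 74.3 CPM in IF16 and 694 ± 136 CPM in AL. Their edgeR adjusted p was 0.000577 and 0.00107 against AL, and 0.0109 and 0.00664 against IF16. The list holds other heat shock proteins, given here outside the rule for named genes. Hsp90aa1 also rose in EOD against AL, by 0.93 on the log2 scale (adjusted p = 0.00295), whereas Hsp90b1, the Hsp90 of the endoplasmic reticulum, fell by 0.45 (adjusted p = 0.0309, and 0.346 without AL replicates 4 and 5). Srd5a1, a steroid 5-alpha-reductase that inactivates glucocorticoids, fell to 51.0 ± 12.4 CPM in EOD, against 86.7 ± 8.86 CPM in IF16 (adjusted p = 0.00181) and 91.4 ± 11.9 CPM in AL (adjusted p = 0.000287). Hsd11b1, which regenerates active hormone inside liver cells, rose in both fasting groups, to 878 ± 149 CPM in EOD and 896 ± 89.2 CPM in IF16, against 600 ± 42.7 CPM in AL. The adjusted p was 0.0018 for EOD (0.0124 without AL replicates 4 and 5) and 0.0108 for IF16 (0.0611 without them). Akr1d1, a steroid 5-beta-reductase, rose in IF16 against AL by 0.57 on the log2 scale (adjusted p = 0.0406). That call was lost in 11 of 15 fits without 1 library and without AL replicates 4 and 5 (0.171). Without those 2 libraries 7 genes of the list rose and 3 fell in EOD against AL, beside 30.3% of all tested genes called. None was called in IF16 against AL, beside 2.59% of all tested genes. At an unadjusted p under 0.05, 7 of the list were higher and 1 lower there.

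Among 29 tested genes of a list of other glucocorticoid-induced liver genes, 9 rose and 4 fell in EOD against AL, 1 rose and 2 fell in IF16 against AL, and 5 rose and 0 fell in EOD against IF16. Against the 0 that fell in EOD against IF16 by edgeR, 1 was lower at an unadjusted p under 0.05, and DESeq2 called 0. Over all tested genes the percentage called was 35.2% in EOD against AL, 3.5% in IF16 against AL and 16.1% in EOD against IF16. The median log2 fold change of the list was 0.19, 0.05 and -0.05 in that order. Tdo2, the liver enzyme that opens the tryptophan ring, averaged 1580 ± 184 CPM in EOD, 938 ± 150 CPM in IF16 and 826 ± 186 CPM in AL, with adjusted p = 0.000262 against AL and 0.00392 against IF16. Gadd45b, a growth arrest and stress gene, averaged 17.7 ± 8.72 CPM in EOD, 2.58 ± 1.03 CPM in IF16 and 2.06 ± 1.19 CPM in AL, with adjusted p = 8.68e-05 against AL. Gadd45a, of the same family, fell in both fasting groups against AL, at 1.19 ± 0.355 CPM in EOD, 2.04 ± 0.773 CPM in IF16 and 7.41 ± 3.62 CPM in AL (adjusted p = 9.57e-05 for EOD and 0.00993 for IF16). Errfi1, a feedback inhibitor of the epidermal growth factor receptor, rose in EOD against IF16 by 0.53 on the log2 scale (adjusted p = 0.0268), a call lost without IF16 replicate 2, EOD replicate 1 or EOD replicate 3 (up to 0.0729). Angptl4, an inhibitor of lipoprotein lipase, rose in IF16 against AL by 1.08 (adjusted p = 0.0253). That call was lost without AL replicate 2 or without any 1 of IF16 replicates 2 to 5 (up to 0.0739). It was also lost with no filter on low counts and with the 2 groups alone (up to 0.0753). In EOD against AL Angptl4 rose by 1.39 (adjusted p = 0.000692, and 0.00131 without AL replicates 4 and 5). Lcn2, which is also an acute phase gene, fell in EOD against AL by 5.34 on the log2 scale (adjusted p = 0.00907), and by 0.38 without AL replicates 4 and 5 (0.446). Without those 2 libraries 9 genes of the list rose and 1 fell in EOD against AL, and 1 rose and 1 fell in IF16 against AL.

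**Figure D5:**
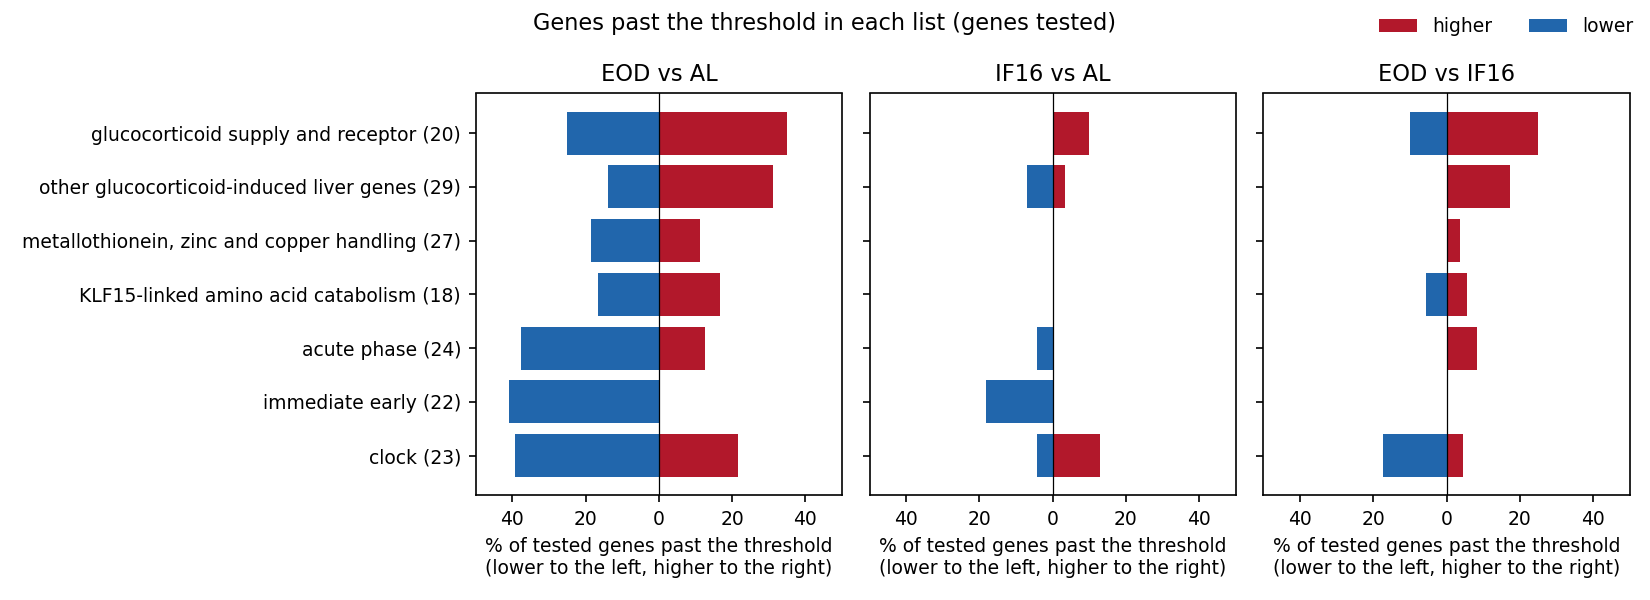
Percent of the tested genes of 7 lists (rows, number of tested genes in brackets) that passed the edgeR threshold, drawn to the right when higher and to the left when lower in the first group of EOD against AL, IF16 against AL and EOD against IF16. Of the glucocorticoid supply list 7 of 20 rose in EOD against AL, and of the immediate early list 9 of 22 fell and none rose. In that comparison 17.6% of all tested genes rose and 17.6% fell.

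Among 27 tested genes of metallothionein, zinc and copper handling other than Mt1 and Mt2, 3 rose and 5 fell in EOD against AL, none was called in IF16 against AL, and 1 rose and 0 fell in EOD against IF16. The 8 of 27 called in EOD against AL stand beside 35.2% of all tested genes, and the 1 of 27 in EOD against IF16 beside 16.1%. With AL replicates 4 and 5 left out, 4 rose and 3 fell in EOD against AL, and none was called in IF16 against AL, where 1 was higher and 1 lower at an unadjusted p under 0.05. In IF16 against AL with all libraries, 2 were higher and 1 lower at an unadjusted p under 0.05, and DESeq2 called 0. In EOD against IF16, 4 were lower at an unadjusted p under 0.05, and DESeq2 called 1. Slc39a8, a zinc and manganese importer, rose to 26.6 ± 3.41 CPM in EOD, against 17.2 ± 1.95 CPM in IF16 (adjusted p = 0.00318) and 15.4 ± 2.60 CPM in AL (adjusted p = 0.000189). Slc30a7, a zinc transporter of the secretory pathway, fell in EOD against AL by 0.36 on the log2 scale (adjusted p = 0.0133), and Slc39a11 fell by 0.47 (0.0215). Neither passed without AL replicates 4 and 5 (0.135 and 0.132), and Slc39a11 was also lost without AL replicate 1 or EOD replicates 2, 4 or 5 (up to 0.0675). Mtf1, the metal-sensing activator of metallothionein genes, and Slc30a1, a zinc exporter that it also induces, are given outside the rule for named genes. Mtf1 was at 9.18 to 13.7 CPM in EOD, 7.69 to 9.82 CPM in IF16 and 7.42 to 11.7 CPM in AL. Slc30a1 was at 21.4 to 26.8 CPM in EOD, 18.6 to 28.3 CPM in IF16 and 19.5 to 32.3 CPM in AL, with 27.8 and 32.3 CPM in AL replicates 4 and 5. In IF16 against AL the smallest p of the list was that of Commd1, a copper-handling protein, with a log2 fold change of 0.39 (adjusted p = 0.223).

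Of 18 genes of amino acid breakdown and the urea cycle linked to KLF15 in mouse liver, 3 rose and 3 fell in EOD against AL, none was called in IF16 against AL, and 1 rose and 1 fell in EOD against IF16. The 6 of 18 called in EOD against AL stand beside 35.2% of all tested genes, and the 2 of 18 in EOD against IF16 beside 16.1%. With AL replicates 4 and 5 left out, 3 rose and 2 fell in EOD against AL, and none was called in IF16 against AL, where 1 was higher and 1 lower at an unadjusted p under 0.05. In IF16 against AL with all libraries, 1 was higher and 3 lower at an unadjusted p under 0.05, and DESeq2 called 0. Aass, of lysine breakdown, averaged 328 ± 67.7 CPM in EOD, 231 ± 20.03 CPM in IF16 and 219 ± 35.0 CPM in AL, with adjusted p = 0.00368 against AL and 0.0194 against IF16, the last of which became 0.0637 without EOD replicate 1. Prodh, of proline breakdown, fell to 127 ± 33.3 CPM in EOD, against 200 ± 38.8 CPM in AL (adjusted p = 0.00739). Arg1, the arginase of the urea cycle, had the smallest p of the list in IF16 against AL, at -0.32 on the log2 scale (adjusted p = 0.114).

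Other lists gave the context of the members that respond to several signals. Of 24 acute phase genes, 3 rose and 9 fell in EOD against AL with all libraries, while 12 rose and 0 fell without AL replicates 4 and 5. In IF16 against AL 0 rose and 1 fell with all libraries, and 3 rose and 0 fell without the 2 libraries. The 2 libraries were picked by their high acute phase transcripts, so leaving them out lowers the AL score of this list. The counts without them carry that choice, for which the adjusted p-values make no allowance. At an unadjusted p under 0.05, 1 was higher in IF16 with all libraries, and without the 2 libraries 0 were lower in EOD and 1 in IF16. DESeq2 called 0 higher in IF16 with all libraries. By edgeR, 35.2% of all tested genes were called in EOD against AL and 3.5% in IF16 against AL. Without the 2 libraries the percentages were 30.3% and 2.59%. Serpina3m, a serine protease inhibitor, rose in EOD against AL by 0.96 on the log2 scale (adjusted p = 7.76e-05), and Crp rose in EOD against IF16 by 0.64 (0.0138). Saa2 fell in EOD against AL by 7.23 with all libraries (0.00631) and by 0.78 without AL replicates 4 and 5 (0.158). Of 22 immediate early genes, to which Dusp1 is related by its fast response, 0 rose and 9 fell in EOD against AL and 0 rose and 4 fell in IF16 against AL. At an unadjusted p under 0.05, 0 were higher in EOD and 1 in IF16, and DESeq2 called 0 higher in both. Without AL replicates 4 and 5, 1 rose and 6 fell in EOD, and 0 rose and 3 fell in IF16. The immediate early counts stand beside the same percentages of all tested genes. Csrnp1 averaged 8.69 ± 1.80 CPM in EOD, 9.26 ± 2.74 CPM in IF16 and 18.8 ± 4.87 CPM in AL, with adjusted p = 0.000805 for EOD and 0.013 for IF16. Fos fell in EOD against AL by 1.82 on the log2 scale (adjusted p = 0.000886).

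Of 23 clock genes, 5 rose and 9 fell in EOD against AL, 3 rose and 1 fell in IF16 against AL, and 1 rose and 4 fell in EOD against IF16. Over all tested genes the percentage called was 35.2%, 3.5% and 16.1% in that order. Leaving out AL replicates 4 and 5, 4 rose and 8 fell in EOD against AL, and 1 rose and 1 fell in IF16 against AL. Arntl, the activator of the clock, averaged 10.3 ± 4.49 CPM in EOD, 4.50 ± 3.19 CPM in IF16 and 0.877 ± 0.298 CPM in AL, with adjusted p = 7.03e-05 for EOD and 0.0127 for IF16, the last of which became 0.0692 without AL replicates 4 and 5. Bhlhe41, a clock repressor, averaged 1.05 ± 0.195 CPM in EOD, 1.19 ± 0.763 CPM in IF16 and 6.70 ± 1.74 CPM in AL, with adjusted p = 1.83e-05 for EOD and 0.00051 for IF16. Clock rose in EOD by 1.54 against AL (adjusted p = 5.52e-06) and by 0.98 against IF16 (0.000938) on the log2 scale. Per2, a repressor that is also a target of the glucocorticoid receptor, fell in EOD against IF16 by 1.48 on the log2 scale (adjusted p = 0.00125). It also fell in EOD against AL, by 1.68 (adjusted p = 0.000153, and 0.00084 without AL replicates 4 and 5). Per1, another target given outside the rule for named genes, had a log2 fold change of -0.47 in EOD against AL (adjusted p = 0.199). Hormone and clock transcripts both follow the time of day, and with no hour of harvest in the labels a shift of clock phase, a difference in harvest time and the feeding regimen cannot be told apart. The part of the clock in the Klf9 and Sgk1 results was not tested.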

How the data were processed

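Poly(A) RNA of mouse liver was sequenced, with 5 libraries in each of 3 feeding groups taken from the labels. The authors deposited raw counts per Ensembl gene, together with FPKM values that equal each count scaled by gene length and library total in 100% of cells. The submitters' processing notes list STAR 2.5, HTSeq 0.6.1 and DESeq2 as tools and mm10 as the build, with no role, and the labels do not state whether counting used strand. The 9 members, the 7 pathway lists and the marker lists were chosen with earlier results of these data known.

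The main test was edgeR 4.0.16 (R 4.3.3) on the deposited counts. It used filterByExpr with a minimum count of 10, which left 13837 genes, TMM scaling, 1 mean per group and the robust quasi-likelihood F test over all 15 libraries. Adjusted p-values follow Benjamini and Hochberg across those genes, with 0.05 as the threshold. The SE is the size of the log2 change over the root of its F statistic, and intervals are 95%. At these depths 3 counts correspond to 0.0786 to 0.107 CPM, and every member had at least 74 counts in each library. In the coordinates of the deposited table no other row overlaps a member, whereas in GENCODE vM21 Ergic1 and Gm8225 overlap Dusp1 on the other strand.

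Alternatives were the size factors of DESeq2 1.42.0 and its Wald test, no filter or 1 CPM in 5 libraries as the filter, a fit of only the groups compared, the replicate number as a block, removal of each library in turn or of AL replicates 4 and 5 together, and limma 3.58.1 on log2 FPKM with 1 or 0.1 added. Named genes are the members, up to 3 called genes of smallest p per list and comparison with a mean of at least 1 CPM (or the smallest p if none was called), and the 3 genes most like each member. AL replicates 4 and 5 were picked by their values in these data, and the likeness over 13 libraries was chosen after seeing the data. A gene that this rule also takes is not reported here.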

Additional observations from a re-analysis of the deposited data

Results flagged for a closer look

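Tsc22d3 was flagged in IF16, where replicate 1 lay far below the other libraries. It had 102.1 CPM, against 256.9 to 373.9 CPM in the other 4 IF16 libraries, and on the log2 CPM scale the gap took 0.711 of the range of the group, just above Dixon's critical value of 0.71 for 5 samples. On the CPM scale it took 0.57 of the range and lay below that value. It was 1 of 27 groups looked at (9 genes in 3 groups), and chance flags about 1 in 20. In the same library Sgk1 (13.6 CPM) and Dusp1 (26.4 CPM) were also the lowest of IF16, and Klf15 (146 CPM) too. Without this library the log2 fold change of Tsc22d3 in IF16 against AL was 1.05 with an edgeR adjusted p of 0.0591.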

How the results depend on the processing

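Klf9 in EOD against AL and against IF16, and Sgk1 in EOD against AL, passed in every alternative. The count of members called in IF16 against AL was 1, and became 2 with the DESeq2 Wald test (Sgk1 and Mt2), 0 with no filter on low counts, with the 2 groups alone, with AL replicates 4 and 5 both left out and in limma on log2(FPKM + 1) with no minimum, and 0 to 1 with each library left out. In EOD against AL it was 2, and 5 with AL replicates 4 and 5 both left out. It was 3, with Tsc22d3 added, in the DESeq2 Wald test, with the replicate block and in limma with a mean FPKM of at least 0.5 (1 or 0.1 added). In EOD against IF16 it was 1, and 2 with the replicate block, where Sgk1 passed. Leaving out 1 library gave 2 to 3 members in EOD against AL and 1 in EOD against IF16. With AL replicates 4 and 5 both left out the direction turned in IF16 against AL for Fkbp5 (0.38), Klf9 (0.041), Dusp1 (-0.251), Mt1 (1.65) and Mt2 (1.51), in EOD against AL for Mt1 (2.20) and Mt2 (3.04), and in EOD against IF16 for Tsc22d3 (0.004). With the replicate block Dusp1 turned in IF16 against AL (-0.041), and Tsc22d3 (0.036) and Zbtb16 (-0.176) in EOD against IF16. In limma on FPKM the same 2 genes turned in EOD against IF16, Tsc22d3 at 0.056 or 0.058 and Zbtb16 at -0.069 or -0.172. With 1 library left out, log2 fold changes crossed 0 in IF16 against AL for Klf9 (-0.35 to 0.046), Zbtb16 (-0.16 to 0.82) and Dusp1 (-0.16 to 0.25). In EOD against AL they did for Zbtb16 (-0.27 to 0.96) and Dusp1 (-0.371 to 0.009), and in EOD against IF16 for Tsc22d3 (-0.20 to 0.16), Klf15 (-0.004 to 0.145) and Zbtb16 (-0.39 to 0.38). None of these values had passed the threshold with all libraries, and the cause was not tested. Same-numbered libraries deviated together in 5 of 15 pairs at a correlation over 0.1 (from -0.13 to 0.218). The best match of a library in another group had its own number in 8 of 30 look-ups. The labels do not say whether the numbers pair the libraries, and correlations this weak cannot decide it. Counts were high enough for every member, and the spread between libraries sets the precision.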
